A study of Mus musculus with 4 samples.

Results

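The endoplasmic reticulum (ER) chaperones, unfolded protein response genes and protein translocation genes of T cells cultured towards the TH9 state were compared between Batf3-/- and WT cells. The 35 genes were picked by symbol from a table of 25509 mouse genes, each symbol matched 1 row, and all 35 had enough counts to be tested among 12135 tested genes. They fall into 9 genes for the lumenal chaperones BiP and GRP94 with their cofactors, 6 for disulfide isomerases and lectin chaperones, 4 for the stress sensors and the factor XBP1, 4 for ER-associated degradation (ERAD), 5 for the Sec translocon, 4 for the translocon-associated protein (TRAP) complex and 3 for signal peptidase.

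RNA was sequenced from 2 Batf3-/- and 2 WT libraries. Both genotypes were sorted from spleen as naive CD4+ T cells (CD25-, CD62L high and CD44 low) and kept for 72 h with TL1A, a cytokine of the TNF family, beside IL-4, TGFb and antibodies against CD28 and CD3, which are conditions that promote secretion of interleukin 9. BATF3, the product of the deleted gene, is a small DNA-binding bZIP protein that pairs with JUN-family members. The labels give the mutant only as Batf3-/-, name neither the deleted exons nor the strain, age or sex of the mice, and do not say how many animals or cultures stand behind a library. The sample titles give both replicate 1 libraries 1 code and both replicate 2 libraries another, without saying what the codes mark. The libraries held 31098059 and 15624874 estimated counts for Batf3-/- replicates 1 and 2, and 23754946 and 27285811 for WT replicates 1 and 2. Batf3 itself had 17 and 8 counts in the Batf3-/- libraries, against 1439 and 1661 in the WT libraries, which by edgeR's quasi-likelihood test was -6.84 on the log2 scale with a standard error of 0.297 and an adjusted p of 3.80e-11. Xist, the RNA of the inactive X chromosome, was at 0.0944 and 144 CPM (counts scaled to library size) in Batf3-/- replicates 1 and 2 and at 0.214 and 166 CPM in WT replicates 1 and 2, so it was near 0 in replicate 1 and high in replicate 2 of both genotypes. Xist is expressed in female and not in male mouse cells, so the replicates of a genotype were not made from 1 animal, and the replicate number coincides with this difference in both genotypes. The p-values rest on the spread between these libraries, with each gene's own spread drawn towards that of the other tested genes. The T cell markers, 8 genes that include Cd3e, Cd4 and Lck, summed to 2621 and 2668 CPM in Batf3-/- and to 2719 and 2603 CPM in WT libraries.

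Proteins bound for secretion or for the cell surface enter the ER through the Sec61 channel, lose their signal peptide to signal peptidase, and fold with the help of BiP, GRP94, the calnexin and calreticulin lectins and the protein disulfide isomerases. When unfolded proteins build up, the membrane sensors IRE1 (gene Ern1), PERK (Eif2ak3) and ATF6 start the unfolded protein response: IRE1 splices Xbp1 mRNA, PERK slows translation and raises ATF4, and ATF6 is cut to release a transcription factor. XBP1 and ATF6 act on chaperone and ERAD promoters through the ER stress element. Activated T cells enlarge this machinery as they begin to secrete cytokines. Gene-level counts do not show Xbp1 splicing, sensor phosphorylation or ATF6 cleavage, and in bulk RNA fewer expressing cells and less RNA per cell cannot be told apart.

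The promoter sequences are shown because some of these genes hold the ER stress element. The set was picked for ER chaperone, unfolded protein response and translocation genes, and the element is known from promoters of such chaperone genes. A higher share than over all promoters is therefore not independent of the choice of genes. RefSeq promoters on build GRCm38.p6, from 250 bases before to 50 bases after the annotated start, were at hand for 29 of the 35 genes; Atf6, Hyou1, Manf, Sec61a1, Spcs3 and Ssr2 had no entry. The ER stress element (ERSE), CCAAT and CCACG with any 9 bases between them, searched on both strands, was in 8 of the 29 promoters (27.6%), against 0.119% of all 32851 promoters in the table. The shorter element ERSE-II, ATTGG and CCACG with any 1 base between them, does not overlap ERSE in these promoters and was in 2 of the 29 (6.9%), against 0.0365% of all promoters. The sequences below are written along the strand on which the element reads in this direction, with its fixed letters in capitals.
Hspa5 (chr2:34772025-34772043, gene strand +): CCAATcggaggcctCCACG
Hsp90b1, distal (chr10:86705638-86705656, gene strand -): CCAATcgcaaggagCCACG
Hsp90b1, proximal (chr10:86705533-86705551, opposite to the gene): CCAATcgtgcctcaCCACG
Calr (chr8:84847075-84847093, opposite to the gene): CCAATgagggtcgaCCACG
Canx (chr11:50325800-50325818, gene strand -): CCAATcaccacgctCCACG
Pdia6 (chr12:17266491-17266509, gene strand +): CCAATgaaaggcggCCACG
Dnajc3 (chr14:118937827-118937845, gene strand +): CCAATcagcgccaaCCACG
Creld2 (chr15:88819520-88819538, opposite to the gene): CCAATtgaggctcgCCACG
Syvn1 (chr19:6046532-6046550, gene strand +): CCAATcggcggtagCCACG
Herpud1, ERSE-II (chr8:94386377-94386387, gene strand +): ATTGGgCCACG
Dnajb11, ERSE-II (chr16:22857852-22857862, gene strand +): ATTGGcCCACG

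The exact match to ERSE in Hspa5 began 65 bases before the start, and those in Hsp90b1 began 212 and 107 bases before it. The whole promoters of Hspa5, Hsp90b1 and Herpud1 show the elements in place, in capitals, with each sequence running 5′ to 3′ along the gene's strand, so that the proximal element of Hsp90b1 appears as its reverse complement.
Hspa5 (chr2:34771840-34772139, strand +): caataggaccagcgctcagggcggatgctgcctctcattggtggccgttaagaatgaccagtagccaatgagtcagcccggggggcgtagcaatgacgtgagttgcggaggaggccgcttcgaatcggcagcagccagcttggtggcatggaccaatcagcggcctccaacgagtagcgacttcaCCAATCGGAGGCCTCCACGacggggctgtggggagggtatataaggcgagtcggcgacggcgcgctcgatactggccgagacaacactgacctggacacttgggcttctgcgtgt
Hsp90b1 (chr10:86705395-86705694, strand -): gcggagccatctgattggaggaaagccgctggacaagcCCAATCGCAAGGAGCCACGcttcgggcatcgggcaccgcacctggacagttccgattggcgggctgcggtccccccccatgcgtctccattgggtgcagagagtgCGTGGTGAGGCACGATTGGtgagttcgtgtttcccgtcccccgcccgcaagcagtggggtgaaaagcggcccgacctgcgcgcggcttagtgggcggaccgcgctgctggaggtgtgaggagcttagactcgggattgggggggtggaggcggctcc
Herpud1 (chr8:94386179-94386478, strand +): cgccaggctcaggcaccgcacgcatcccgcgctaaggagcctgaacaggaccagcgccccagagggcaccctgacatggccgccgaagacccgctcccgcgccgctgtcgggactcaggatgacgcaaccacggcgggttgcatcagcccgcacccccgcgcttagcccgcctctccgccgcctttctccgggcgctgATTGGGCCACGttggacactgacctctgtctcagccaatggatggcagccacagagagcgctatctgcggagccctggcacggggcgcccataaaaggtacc
The AP-1 motif TGANTCA, of the kind that BATF-family dimers are known to bind, was in 4 of the 29 promoters (13.8%), those of Hspa5, Sec61b, Eif2ak3 and Sel1l, and in 7.81% of all promoters. The element TGACGTGG, a core of the unfolded protein response element, was in 0 of the 29 and in 0.676% of all promoters. Only exact matches were searched for, and near matches were not counted. A match describes letters in these windows and does not show binding.

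The secretory machinery was abundant in both genotypes. The 35 genes together summed to 9019 and 9034 CPM in Batf3-/- and to 9853 and 8977 CPM in WT libraries, between 0.894% and 0.968% of all counts of a library. Set per kilobase of 1 representative transcript, 32 of the 35 lay above the median of all tested genes and 20 lay in the top 10%. P4hb, the beta subunit of prolyl hydroxylase and a protein disulfide isomerase, had the highest level per length, 464 CPM per kb averaged over the 4 libraries, above 98.7% of tested genes. Hsp90b1 (GRP94) followed at 361 CPM per kb, Calr (calreticulin) at 330, Sec61b (the beta subunit of the Sec61 channel) at 218, Canx (calnexin) at 185 and Hspa5 (BiP) at 176. The sensor genes were at the other end: Ern1 stood at 3.002 CPM per kb, Atf6 at 5.77 and Eif2ak3 at 9.34. Dnajb9, the BiP co-chaperone ERdj4, was as low, at 4.31 CPM per kb. The length is that of the annotated transcript and not of the form these cells express, so the order within a group is approximate.

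**Figure D1:**
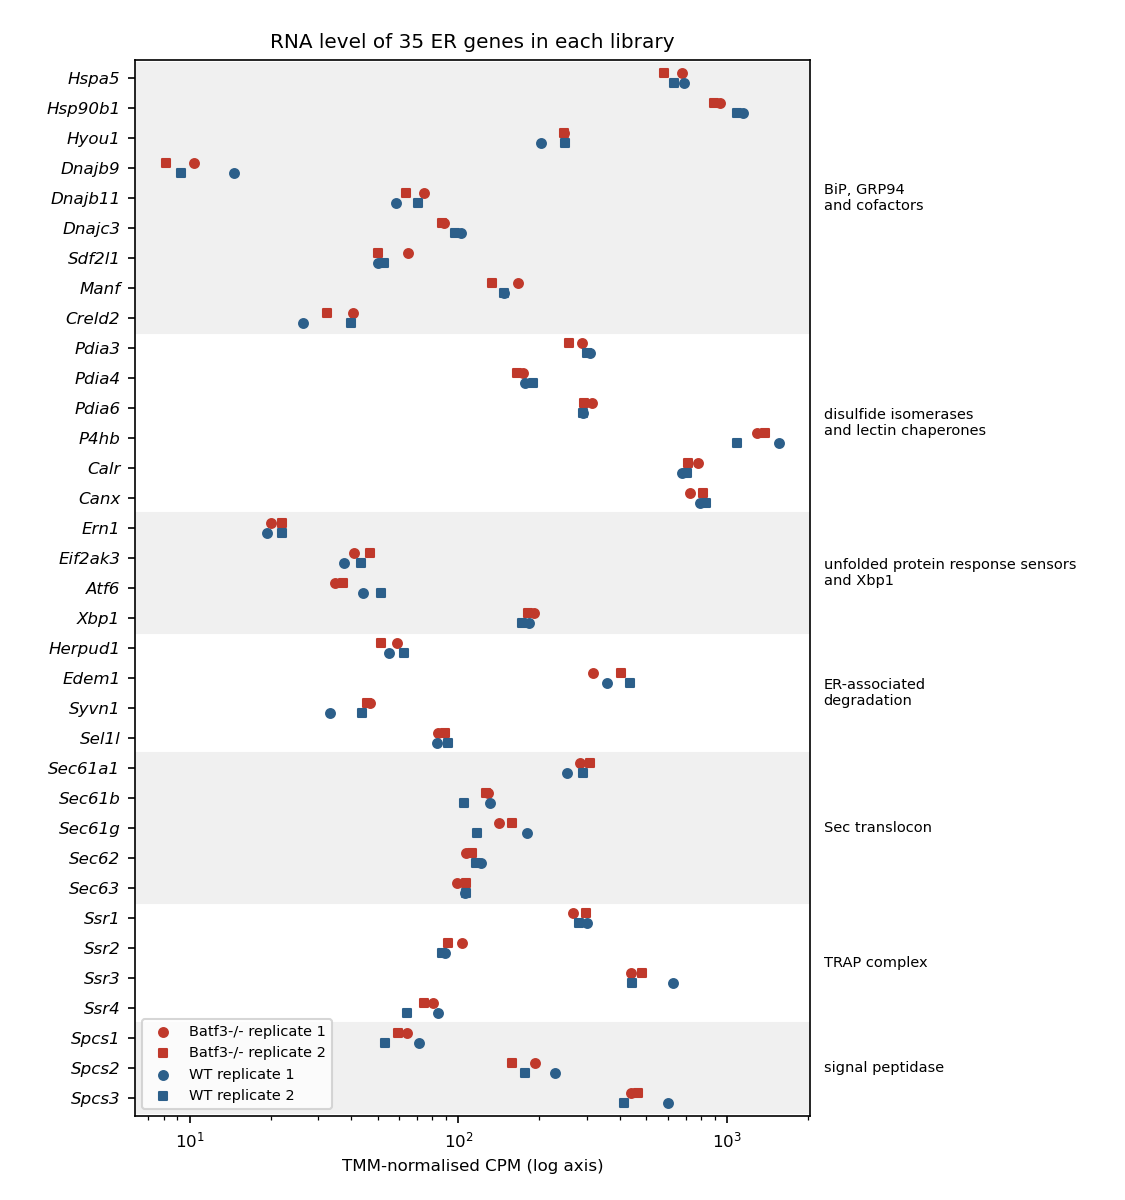
TMM-normalised CPM (log axis) of the 35 genes, 1 row per gene in 7 role groups; red points are Batf3-/- and blue points WT libraries, circles replicate 1 and squares replicate 2. The points of a gene lie close together beside the spread between genes. They separate by genotype for 6 genes with Batf3-/- lower, among them Atf6 and Hsp90b1, and for 4 with Batf3-/- higher. Over all tested genes such separation held for 33.8%.

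No gene of the 35 passed the test in either direction: 0 were higher and 0 lower at an adjusted p of 0.05 or less in edgeR's quasi-likelihood test, and the smallest adjusted p was 0.958. Over all tested genes 0.132% passed, 0.0824% as higher and 0.0494% as lower. At an unadjusted p under 0.05 the count was 1 of 35, Atf6, against 4.8% of all tested genes, 3.4% as higher and 1.4% as lower, and DESeq2 and limma-voom likewise passed 0 of the 35. The log2 fold changes, Batf3-/- over WT, ranged from -0.41 to 0.26, with 17 positive and 18 negative and a median of -0.01, against a median of -0.01 and 48.4% positive over all tested genes. The 95% confidence interval of the fold change lay inside 2-fold either way for all 35 genes and inside 1.5-fold for 27. The libraries of the genotypes did not overlap for 4 genes that were higher and 6 that were lower in Batf3-/- cells. Over all tested genes such separation held for 33.8%, 18.2% as higher and 15.6% as lower.

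**Figure D2:**
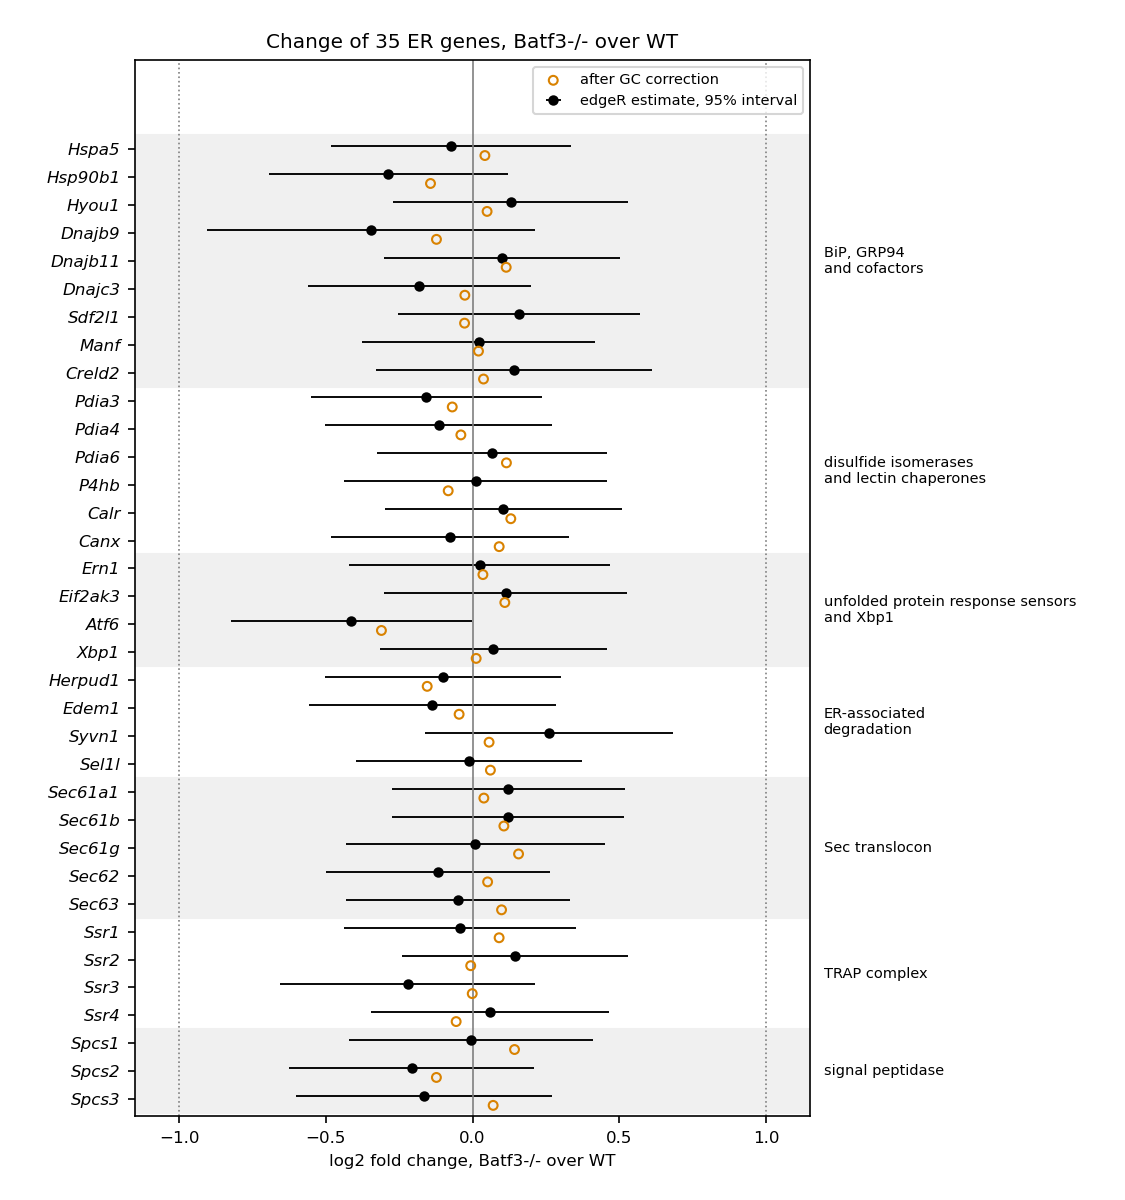
Log2 fold change, Batf3-/- over WT, of each gene with its 95% interval from edgeR (black) and the estimate after a correction for transcript GC content (open circles); dotted lines mark 2-fold. All intervals lie between the dotted lines, and that of Atf6 is the only 1 that does not reach zero.

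Among the sensors and XBP1, Atf6 stood apart from the other members of its group. Atf6 (ENSMUSG00000026663.6, GRCm38 chromosome 1, 170704674 to 170867771) had 34.7 and 37.1 CPM in Batf3-/- libraries, against 44.0 and 51.4 CPM in WT libraries. Both Batf3-/- libraries lay below both WT libraries. The log2 fold change was -0.41 (SE 0.197), with a 95% interval of the fold from 0.565 to 0.999. In edgeR its unadjusted p was 0.0496 and its adjusted p 0.958. Replicate 1 alone gave a log2 ratio of -0.34, and replicate 2 alone gave -0.47. After the GC correction the log2 fold change was -0.31, and the unadjusted p no longer passed 0.05. Atf6 is the only 1 of the 35 genes on chromosome 1, and lies 20.3 Mb from Batf3. With Batf3 itself left out, 145 tested genes lay within 25 Mb of it, Atf6 among them. Of these, 17.2% had an unadjusted p under 0.05, 9 of them lower and the rest of the 25 higher, against 4.8% of all tested genes. Atf6 is 1 of these 9 lower genes. An effect of the mutation and an effect of chromosome 1 sequence carried along with it cannot be told apart here.

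None of the other sensors or Xbp1 passed the test. Ern1 had 20.1 and 21.98 CPM in Batf3-/- and 19.3 and 21.98 CPM in WT libraries (log2 fold change 0.02, SE 0.213). Eif2ak3 had 40.8 and 46.9 CPM in Batf3-/- and 37.6 and 43.4 CPM in WT libraries (log2 fold change 0.11, SE 0.198). Xbp1 had 191 and 182 CPM in Batf3-/- and 183 and 172 CPM in WT libraries (log2 fold change 0.07, SE 0.184). The libraries of the genotypes overlapped for all 3 genes. The log2 ratios within replicates 1 and 2 were 0.12 and 0.11 for Eif2ak3 and 0.06 and 0.08 for Xbp1. The 95% intervals of the fold change ran from 0.747 to 1.38 for Ern1, from 0.812 to 1.44 for Eif2ak3 and from 0.804 to 1.37 for Xbp1.

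The BiP and GRP94 group was split, with log2 fold changes above 0 for 5 genes and below 0 for 4 (median 0.02). Hspa5, the main lumenal HSP70 chaperone and the usual marker of ER stress, had 678 and 580 CPM in Batf3-/- and 689 and 635 CPM in WT libraries. Its log2 fold change was -0.07 (SE 0.195, 95% interval of the fold 0.716 to 1.26, adjusted p = 0.976, edgeR), with overlapping genotypes. Hsp90b1, the lumenal HSP90 that folds integrins and Toll-like receptors, had 939 and 897 CPM in Batf3-/- and 1149 and 1092 CPM in WT libraries. Both Batf3-/- libraries were lower, with a log2 fold change of -0.29 (SE 0.194), the second smallest p of the 35 genes (unadjusted p = 0.156, edgeR). After the GC correction it was -0.14.

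Of the co-chaperones that load BiP, Dnajb9 had 10.4 and 8.15 CPM in Batf3-/- and 14.6 and 9.29 CPM in WT libraries (log2 fold change -0.35, SE 0.267). Dnajc3, the co-chaperone P58IPK, had 88.2 and 87.1 CPM in Batf3-/- and 102 and 96.7 CPM in WT libraries (log2 fold change -0.18, SE 0.182). The Dnajc3 libraries separated by genotype and those of Dnajb9 overlapped. Dnajb11 (ERdj3) stood at 69.1 ± 7.14 CPM in Batf3-/- and 64.5 ± 8.50 CPM in WT cells (mean ± SD, n = 2 each, as in all such pairs). Hyou1, the nucleotide exchange factor of BiP, stood at 247 ± 0.0241 CPM in Batf3-/- and 226 ± 31.9 CPM in WT cells. Sdf2l1, a partner of BiP and ERdj3, stood at 57.4 ± 10.4 CPM in Batf3-/- and 51.5 ± 1.60 CPM in WT cells. The secreted stress proteins Manf and Creld2 stood at 150 ± 23.1 and 36.5 ± 5.60 CPM in Batf3-/- cells, against 147 ± 0.288 and 33.1 ± 9.61 CPM in WT cells. The log2 fold changes of these 5 genes lay between 0.02 and 0.16. None differed beyond the spread between libraries.

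The log2 ratios of this chaperone group differed in sign between the replicate numbers for some genes. Within replicate 2 the log2 ratio of Batf3-/- to WT was negative for all 9 genes (median -0.15), while within replicate 1 it was positive for 5 of 9 (median 0.17), so 4 were negative in both. The TRAP genes went the other way, with 1 of 4 positive within replicate 1 and 4 of 4 within replicate 2. These splits within groups were not tested. Of all 35 genes, 15 were positive within replicate 1 and 16 within replicate 2. Of the 12135 tested genes, 5909 were positive within replicate 1 and 6126 within replicate 2. Creld2 had a log2 ratio of 0.62 within replicate 1 and -0.30 within replicate 2. Over the 35 genes, 8 were positive in both replicate numbers, 12 were negative in both and 15 had opposite signs. The replicate numbers are not stated to mark shared litters or batches, and a pair of single libraries has no replicate error.

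**Figure D3:**
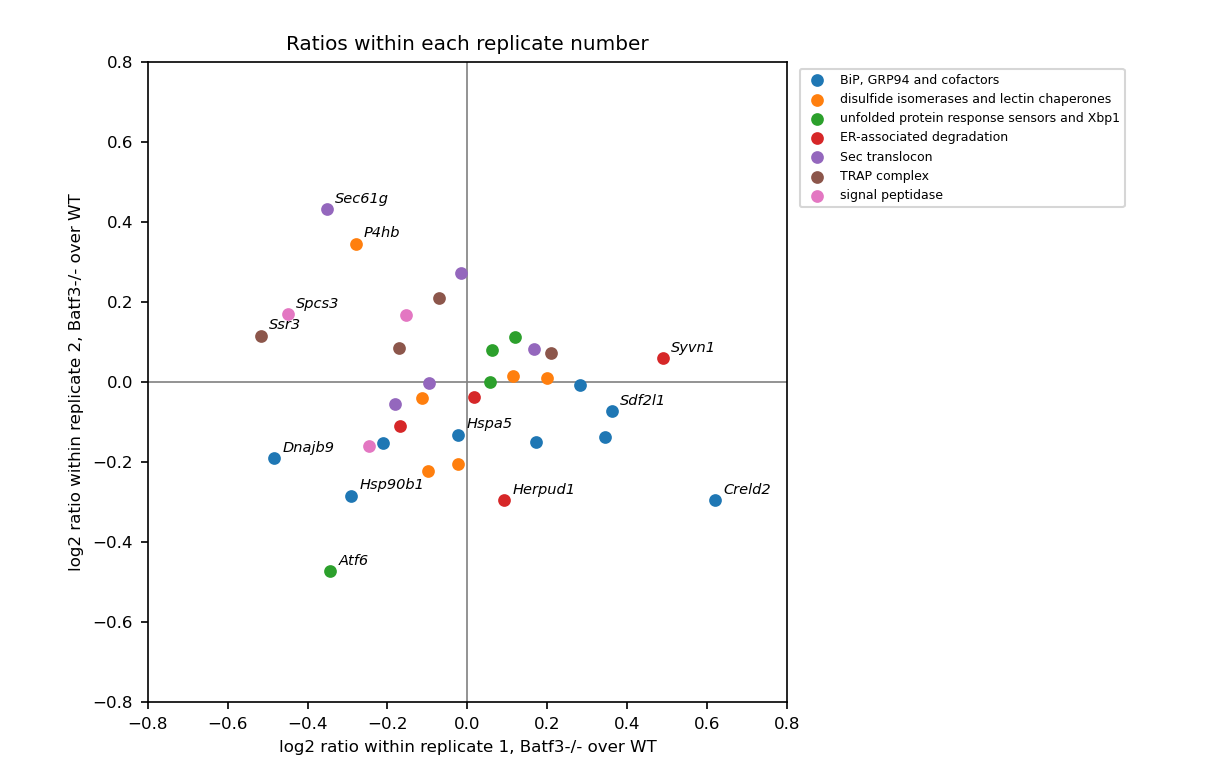
Log2 ratio of Batf3-/- to WT within replicate 1 (x axis) and within replicate 2 (y axis) for the 35 genes, coloured by role, with 12 genes labelled. All 9 genes of the BiP and GRP94 group lie below the horizontal zero line and on both sides of the vertical one, and Atf6 is the lowest point on the vertical axis.

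The disulfide isomerases and lectin chaperones had log2 fold changes above 0 for 3 genes and below 0 for 3 (median -0.03). P4hb had 1287 and 1377 CPM in Batf3-/- libraries, which lay between the WT values of 1562 and 1083 CPM (log2 fold change 0.01, SE 0.214). Calr, a lectin and calcium store of the lumen, had 779 and 714 CPM in Batf3-/- and 678 and 710 CPM in WT libraries (log2 fold change 0.11, SE 0.193). Canx, its membrane-bound counterpart, had 729 and 811 CPM in Batf3-/- and 789 and 834 CPM in WT libraries (log2 fold change -0.08, SE 0.194). The Calr libraries separated narrowly, as higher in Batf3-/- cells, and those of Canx overlapped. Pdia3, the isomerase that works with both lectins, had 287 and 257 CPM in Batf3-/- and 308 and 300 CPM in WT libraries (log2 fold change -0.16, SE 0.188). The isomerase genes Pdia4 and Pdia6 stood at 170 ± 6.97 and 304 ± 14.3 CPM in Batf3-/- cells, against 184 ± 8.68 and 290 ± 0.284 CPM in WT cells. The libraries of Pdia3 and Pdia4 separated as lower and those of Pdia6 as higher in Batf3-/- cells, all without passing the test.

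Of the ERAD genes 1 was positive and 3 were negative (median -0.06). Syvn1, the ubiquitin ligase HRD1, had the most positive log2 fold change of the 35 genes, 0.26 (SE 0.202, adjusted p = 0.958, edgeR). It had 46.8 and 45.6 CPM in Batf3-/- and 33.3 and 43.7 CPM in WT libraries, so WT replicate 1 lay lowest and the genotypes did not overlap. Within replicates 1 and 2 the log2 ratios of Syvn1 were 0.49 and 0.06. Leaving out WT replicate 1 gave a log2 fold change of 0.07. Sel1l, the HRD1 adaptor, stood at 86.5 ± 3.72 CPM in Batf3-/- and 87.2 ± 6.04 CPM in WT cells. Herpud1, an ERAD scaffold whose gene is a standard stress target, stood at 55.1 ± 5.33 CPM in Batf3-/- and 59.1 ± 5.46 CPM in WT cells. Edem1, which takes part in the choice of glycoproteins for degradation, stood at 360 ± 60.9 CPM in Batf3-/- and 395 ± 55.8 CPM in WT cells. For Sel1l, Herpud1 and Edem1 the genotypes overlapped.

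The Sec translocon had log2 fold changes above 0 for 3 genes and below 0 for 2 (median 0.01). Sec61b had 129 and 126 CPM in Batf3-/- libraries, which lay between the WT values of 131 and 105 CPM (log2 fold change 0.12, SE 0.189). The channel subunit Sec61a1 stood at 296 ± 18.2 CPM in Batf3-/- and 272 ± 27.5 CPM in WT cells. The gamma subunit Sec61g stood at 150 ± 12.1 CPM in Batf3-/- and 149 ± 44.5 CPM in WT cells, with log2 ratios of -0.35 and 0.43 within replicates 1 and 2. Sec62 and Sec63, which serve post-translational translocation, stood at 110 ± 3.73 and 103 ± 5.75 CPM in Batf3-/- cells, against 119 ± 3.35 and 106 ± 0.982 CPM in WT cells. The libraries of Sec62 separated as lower in Batf3-/- cells, and those of the other 4 genes overlapped.

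The TRAP complex, which assists translocation at the channel, had log2 fold changes above 0 for 2 genes and below 0 for 2 (median 0.01). Its gamma subunit gene Ssr3 had 440 and 481 CPM in Batf3-/- and 630 and 444 CPM in WT libraries (log2 fold change -0.22, SE 0.207). The high value was that of WT replicate 1, and the log2 ratios were -0.52 and 0.12 within replicates 1 and 2. The other subunit genes Ssr1, Ssr2 and Ssr4 stood at 282 ± 21.04, 96.99 ± 8.12 and 77.3 ± 3.92 CPM in Batf3-/- cells, against 291 ± 14.8, 87.8 ± 1.53 and 74.3 ± 13.96 CPM in WT cells. Their log2 fold changes were -0.04, 0.14 and 0.06, and the libraries of Ssr2 separated as higher in Batf3-/- cells. The signal peptidase genes Spcs1, Spcs2 and Spcs3 had log2 fold changes of -0.01, -0.21 and -0.16. Spcs2 had 194 and 158 CPM in Batf3-/- and 230 and 177 CPM in WT libraries (SE 0.200). Leaving out WT replicate 1 gave Spcs2 a log2 fold change of -0.02, and leaving out WT replicate 2 gave -0.38. Spcs1 stood at 61.9 ± 3.13 CPM in Batf3-/- and 62.3 ± 12.9 CPM in WT cells. Spcs3 had 439 and 466 CPM in Batf3-/- and 600 and 414 CPM in WT libraries. For all 3 signal peptidase genes the genotypes overlapped and WT replicate 1 was the highest library.

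The small differences ran along the base composition of the transcripts. Transcript GC content of the 35 genes ran from 40.2% for Spcs3 to 57.4% for Syvn1, and across the 35 genes the log2 fold change was higher at higher GC content (Pearson's r = 0.765, a description over genes that share the same 4 libraries). Over all tested genes r was 0.426. The steepest trend was that of WT replicate 1. Over all tested genes the deviation of log2 CPM from the mean of the libraries changed, per 10 points of GC percent, by 0.12 and 0.15 in Batf3-/- replicates 1 and 2, and by -0.27 and 0.00 in WT replicates 1 and 2. Within replicate 1, which holds WT replicate 1, r over the 35 genes was 0.797, and within replicate 2 it was 0.104. When each library's trend on GC was removed before the test, 0 of the 35 genes passed, 21 were positive and 14 negative (median 0.04). Pearson's r with GC content was then -0.00, which follows largely from removing that trend and is no separate result. The estimate after this correction was 0.06 for Syvn1 (0.26 before it), -0.00 for Ssr3 (-0.22 before it), 0.07 for Spcs3 (-0.16 before it) and 0.04 for Hspa5 (-0.07 before it). Atf6 had the most negative estimate before and after it. The part of GC content in the differences was not tested beyond this correction.

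**Figure D4:**
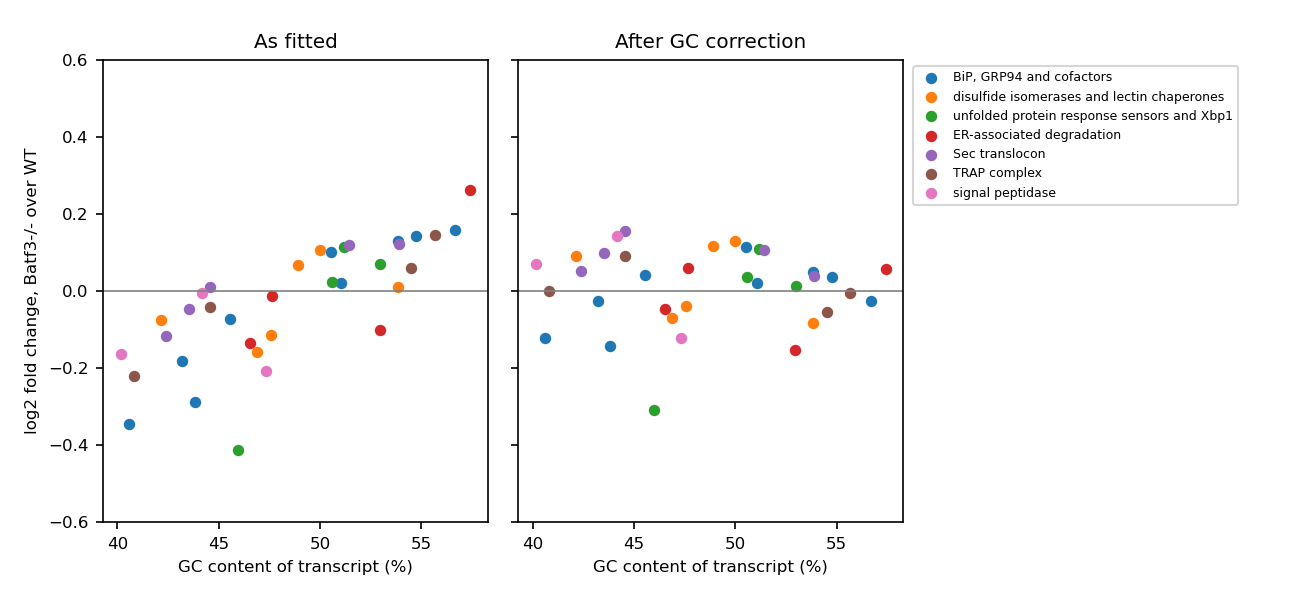
Log2 fold change, Batf3-/- over WT, against the GC content of a representative transcript (%) for the 35 genes, as fitted (left) and after the GC correction (right), coloured by role. The left panel rises from low to high GC. The right panel, from which the trend on GC was removed, has no slope, and Atf6 is the lowest point in both.

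Genes with an ER stress element in the promoter had log2 fold changes on both sides of 0. Of the 10 genes with ERSE or ERSE-II, 5 had a positive log2 fold change (median -0.00, from -0.29 for Hsp90b1 to 0.26 for Syvn1) and 0 passed in edgeR. Of the 19 genes whose promoter held no exact match to either, 8 were positive (median -0.01) and 0 passed. Within replicates 1 and 2 the medians were 0.10 and -0.13 for the genes with an element and -0.10 and 0.00 for those without. The split was not tested.

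Other genes of the secretory pathway were taken from lists drawn up beside the 35. Of 111 further genes 109 were tested, 0 passed in either direction in edgeR, and 45 were positive and 64 negative (median -0.03). At an unadjusted p under 0.05 in edgeR there were 2 of the 109, against 4.8% of all tested genes. Both were of the folding list: Ppic, cyclophilin C, and Cnpy3, a chaperone that assists Toll-like receptors. Ppic had 1.95 and 1.88 CPM in Batf3-/- and 3.73 and 3.03 CPM in WT libraries (log2 fold change -0.81, SE 0.353). In edgeR its unadjusted p was 0.0339 and its adjusted p 0.958. Cnpy3 had 29.1 and 33.5 CPM in Batf3-/- and 21.3 and 24.5 CPM in WT libraries (log2 fold change 0.45, SE 0.207). In edgeR its unadjusted p was 0.0448 and its adjusted p 0.958. Both genes had non-overlapping genotypes, as did 33.8% of all tested genes. The 22 tested folding genes had 9 positive members (median -0.14).

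Among 18 further unfolded protein response genes, 12 were positive (median 0.08). Their median transcript GC content was 54.4%, against 50.4% over all tested genes. Within replicates 1 and 2 their median log2 ratios were 0.22 and 0.01. Atf4, the transcription factor translated when PERK is active, had 318 and 277 CPM in Batf3-/- and 227 and 235 CPM in WT libraries (log2 fold change 0.37, SE 0.189, adjusted p = 0.958, edgeR). Both Batf3-/- libraries lay above both WT libraries, and the difference did not pass the test. Atf6b, the paralog of Atf6, had 47.2 and 41.5 CPM in Batf3-/- and 29.3 and 40.8 CPM in WT libraries (log2 fold change 0.34, SE 0.210). Replicate 1 alone gave a log2 ratio of 0.69, and replicate 2 alone 0.03.

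Of 18 further ERAD genes 9 were positive (median 0.01). Erlec1, a lectin of the degradation pathway, had 36.0 and 31.6 CPM in Batf3-/- and 56.3 and 34.4 CPM in WT libraries (log2 fold change -0.42, SE 0.228). Aup1, which recruits a ubiquitin-conjugating enzyme, had 140 and 124 CPM in Batf3-/- and 107 and 104 CPM in WT libraries (log2 fold change 0.33, SE 0.184). The Aup1 libraries separated by genotype and those of Erlec1 overlapped. Of 13 targeting and translocation genes 4 were positive (median -0.11). The signal recognition particle gene Srp9 had 103 and 91.7 CPM in Batf3-/- and 136 and 102 CPM in WT libraries (log2 fold change -0.29, SE 0.196). Srp19, of the same particle, had 51.0 and 41.0 CPM in Batf3-/- and 61.4 and 48.4 CPM in WT libraries (log2 fold change -0.25, SE 0.203). Both genes had overlapping genotypes, with WT replicate 1 highest.

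Of 11 oligosaccharyltransferase genes 3 were positive (median -0.02). The subunit gene Rpn1 had 262 and 244 CPM in Batf3-/- and 179 and 223 CPM in WT libraries (log2 fold change 0.33, SE 0.193). Ostc, another subunit gene, had 135 and 109 CPM in Batf3-/- and 175 and 116 CPM in WT libraries (log2 fold change -0.26, SE 0.212). The Rpn1 libraries separated by genotype and those of Ostc overlapped. Of 27 genes of ER to Golgi transport 8 were positive (median -0.07). Sar1b, the GTPase that starts the COPII coat, had 56.2 and 52.1 CPM in Batf3-/- and 95.7 and 51.9 CPM in WT libraries (log2 fold change -0.45, SE 0.242). Kdelr3, a receptor that returns lumenal proteins to the ER, had 15.6 and 17.5 CPM in Batf3-/- and 24.7 and 18.7 CPM in WT libraries (log2 fold change -0.39, SE 0.225). WT replicate 1 was the highest library for both, and only Kdelr3 separated by genotype. The adjusted p was 0.958 for each of these 8 genes in edgeR. Without WT replicate 2, which leaves WT replicate 1 as the only WT library, Sar1b and Erlec1 had log2 fold changes of -0.82 and -0.74. Without WT replicate 1 they stood at 0.05 and -0.03. The log2 fold change without that library was -0.08 for Srp9, -0.08 for Srp19, 0.17 for Rpn1, 0.06 for Ostc, -0.19 for Kdelr3 and 0.11 for Atf6b. Other named genes changed less: Aup1 stood at 0.335, Atf4 at 0.332, Cnpy3 at 0.339 and Ppic at -0.664. With all libraries these were 0.330, 0.366, 0.446 and -0.808. In the same setting the median of the further folding genes was 0.05 and that of the further unfolded protein response genes was -0.00.

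**Figure D5:**
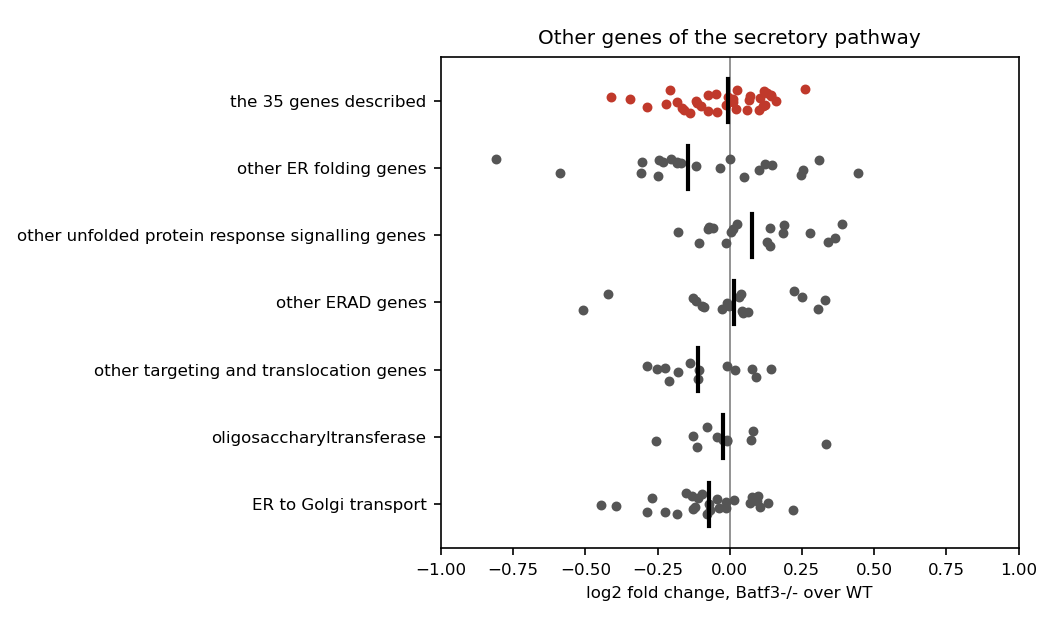
Log2 fold change, Batf3-/- over WT, of each tested gene in the 35-gene set (red) and in 6 further lists of the secretory pathway (grey); black bars are medians. The medians of the lists lie between -0.14 and 0.08.

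Markers of other cells were low. The plasma cell, a cell type with an enlarged ER, was looked for with 6 symbols, of which 5 matched a row. They summed to 5.89 and 7.57 CPM in Batf3-/- and to 4.37 and 4.16 CPM in WT libraries. Most of it was Sdc1 (syndecan-1), which had 5.32 and 6.92 CPM in Batf3-/- and 3.43 and 3.50 CPM in WT libraries. Derl3 went the other way, with 0.504 and 0.647 CPM in Batf3-/- and 0.943 and 0.656 CPM in WT libraries. The defining genes Tnfrsf17 and Mzb1 had 0 counts in every library, and Jchain had 2 counts in Batf3-/- replicate 1 and 0 in the other libraries. The B cell markers summed to 10.2 and 12.3 CPM in Batf3-/- and to 13.2 and 9.91 CPM in WT libraries, with Ms4a1 at 0 in every library and nearly all of the sum from Cd79b (9.98 and 12.2 CPM in Batf3-/-, 13.1 and 9.62 CPM in WT libraries). The macrophage and monocyte, dendritic cell, NK cell and CD8 T cell lists each summed to at most 9.43 CPM in any library, with Lyz2, Clec9a and Ncr1 at 0. Cd68 carried most of the macrophage and monocyte sum, at 3.15 and 2.97 CPM in Batf3-/- and 4.33 and 3.03 CPM in WT libraries. Zbtb46 carried most of the dendritic cell sum, at 5.16 and 4.91 CPM in Batf3-/- and 7.24 and 5.43 CPM in WT libraries. Cd8b1 carried most of the CD8 T cell sum, at 7.33 and 7.24 CPM in Batf3-/- and 8.92 and 8.31 CPM in WT libraries. The part of such cells in the results was not tested.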

How the data were processed

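The authors deposited expected counts per gene, which RSEM estimates and which can be fractional where reads are shared between genes (as for Hsp90b1, Manf, Syvn1, Sec61b, Sec63, Ssr2 and Spcs1, whose values are less certain). STAR 2.5.0, RSEM 1.2.25 and GRCm38 are named in the submitters' processing notes; libraries were stranded and polyA-selected, per the labels' protocols. No annotation release or strand setting is stated in the sources used here. The members and lists were chosen with earlier results of these data known.

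Of 25601 rows, 92 spike-in entries, all 0, were left out. Expected counts were rounded and tested with edgeR 4.0.16 under R 4.3.3 (filterByExpr with minimum count 10 and minimum total 15, TMM, robust glmQLFit with legacy=FALSE and glmQLFTest, genotype only, two-sided, Benjamini-Hochberg over 12135 genes, threshold 0.05; common biological coefficient of variation 0.171). Levels are TMM-normalised CPM of the unrounded counts; log2 ratios within a replicate number use a prior count of 0.5. Intervals are at 95%, from the quasi-likelihood standard error, and cover the spread between libraries only. That spread is drawn towards that of other genes, with a median of 16.83 prior against 2 residual degrees of freedom. Replicates differed beyond sampling noise (chi-square per degree of freedom 24.1 in Batf3-/- and 66.7 in WT), so none were merged. A count of 0 allows up to 3 counts, 0.0944 to 0.194 CPM, counting error only.

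Transcript length, GC and positions came from GENCODE M21 (the longest transcript with the APPRIS principal tag, or else the longest), matched for 12105 tested genes; promoters from RefSeq. Full values were given for the 8 members with the smallest p, the 6 highest per length, the sensor group and Hspa5, and for the 2 smallest p of each further list. Hm13 and Igj were not analysed here, and Fkbp14 had too few counts to test. Each tool was tested on simulated data for Batf3-/- against WT (11976 genes): for 2-fold changes edgeR found 55%, DESeq2 1.42.0 52% and limma-voom (limma 3.58.1) 53%, each found 91% of 4-fold changes, and 12 of edgeR's 158 calls were false. Alternatives were other scaling (DESeq2's size factors, upper quartile), filters, DESeq2, limma-voom, leaving out each library, a replicate block, and a GC correction that removes each library's loess trend on GC through offsets.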

Additional observations from a re-analysis of the deposited data

How the results depend on the processing

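In all 13 alternatives 0 of the 35 genes passed as higher and 0 as lower; the smallest adjusted p was 0.0909, for Ssr3 without WT replicate 2. In simulated counts edgeR recovered 55% of 2-fold changes placed in genes drawn at random from all tested genes. The share for genes at the levels of the 35 was not worked out. Smaller changes are not detectable with certainty in 2 libraries per genotype. Of the 35 genes, 13 kept their sign in every alternative, among them Atf6 (from -0.53 to -0.30), Hsp90b1 (from -0.32 to -0.14) and Syvn1 (from 0.06 to 0.47).

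Over all tested genes the 10 higher and 6 lower genes became 21 higher with DESeq2 and 6 higher with the GC correction; leaving out 1 library gave 11 to 301 higher (38 without WT replicate 1, 301 without WT replicate 2, 23 without Batf3-/- replicate 2) and 7 to 252 lower. The median of the 35 genes was 0.0233 with upper-quartile scaling, 0.0375 with the GC correction and 0.0386 with the replicate block and GC correction, and ran from -0.0359 to -2e-04 with 1 library left out. With 1 library of a genotype left, it was assumed to vary like the other genotype.

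Libraries with the same replicate number share a title code that the labels do not explain and a like Xist level. Same-numbered libraries deviated from their genotype means with a correlation of 0.107 over all tested genes and 0.020 over the 35. With the replicate block 81 genes were higher and 31 lower over all tested genes, and 52 and 30 with the GC correction added, with 1 residual degree of freedom in these fits; 0 of the 35 passed in them.

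Values that changed sign were these, in log2 fold change; none passed the test in the setting that turned it. With the GC correction, values were 0.0422 for Hspa5, -0.0271 for Sdf2l1, -0.0828 for P4hb, 0.0909 for Canx, 0.061 for Sel1l, 0.0515 for Sec62, 0.099 for Sec63, 0.0907 for Ssr1, -0.0061 for Ssr2, -0.0557 for Ssr4, 0.1432 for Spcs1 and 0.0704 for Spcs3. With the replicate block and GC correction they were 0.0378 for Hspa5, -0.0402 for Sdf2l1, -0.0501 for P4hb, 0.0982 for Canx, 0.0643 for Sel1l, 0.0544 for Sec62, 0.1024 for Sec63, 0.0889 for Ssr1, -0.0069 for Ssr2, -0.0376 for Ssr4, 0.1466 for Spcs1 and 0.0718 for Spcs3. Spcs1 was at 0.0128 with limma-voom, 0.0066 with the replicate block and 0.0233 with upper-quartile scaling, where Sel1l was at 0.0165. With 1 library left out, ranges that crossed zero were -0.1357 to 0.4749 for Creld2, -0.0369 to 0.2428 for Dnajb11, -0.6359 to 0.0028 for Dnajb9, -0.3182 to 0.0269 for Edem1, -0.0756 to 0.1194 for Ern1, -0.1919 to 0.0384 for Hspa5, -0.018 to 0.2818 for Hyou1, -0.1473 to 0.1723 for Manf, -0.2301 to 0.2884 for P4hb, -0.0409 to 0.332 for Sdf2l1, -0.0315 to 0.2787 for Sec61b, -0.268 to 0.3423 for Sec61g, -0.1028 to 0.0082 for Sec63, -0.0911 to 0.0603 for Sel1l, -0.2035 to 0.2119 for Spcs1, -0.4072 to 0.1177 for Spcs3, -0.1175 to 0.0313 for Ssr1, -0.4523 to 0.0435 for Ssr3, -0.1216 to 0.2541 for Ssr4, -0.5222 to 0.061 for Ostc and -0.8205 to 0.0507 for Sar1b. The cause of these changes was not tested. Alternatives for the further secretory genes were added after seeing the data.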
